A study of Mus musculus with 6 samples.

Results

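The dynein and kinesin motor genes of mouse ependymal cells were described across 6 RNA-seq libraries. Members were all genes whose symbol starts with Dnah, Dnai, Dnal, Dync, Dynl or Kif, with any further letters, and then carries a number, leaving out 4 pseudogene symbols. This rule took 81 of the 47643 genes listed. Of these, 78 code for subunits: 42 kinesin genes, 11 inner arm dynein genes, 9 outer arm dynein genes, 7 cytoplasmic dynein genes and 9 dynein light chain genes that more than one kind of dynein shares. The rule also took Kif1bp, which codes for a kinesin binding protein and not a motor, and 2 antisense RNA genes, Dnah2os and Kif16bos, which were at 0 in every library.

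The cells were sorted by flow cytometry for GFP from the ventricular-subventricular zone, the adult germinal zone along the lateral ventricles, 2 days after tamoxifen. Tamoxifen induced a recombination that switched on GFP in ependymal cells. In the conditional knockout (cKO) it also removed Ccn1, which codes for a secreted matrix protein. Control mice received the same treatment and the same sort, and each genotype has 3 samples. The titles call every sample adult. The Cre driver, the alleles, exact age, sex and any pooling of mice are not stated in the labels or design text used here, which call the material total RNA in one field and cytoplasmic RNA in another.

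Dyneins walk towards the minus end of microtubules and most kinesins towards the plus end, both by hydrolysing ATP. In motile cilia, such as those with which ependymal cells move cerebrospinal fluid, outer and inner dynein arms fixed to the doublet microtubules slide the doublets and bend the cilium. Kinesin-2 carries cargo into the cilium and cytoplasmic dynein 2 brings it back, while cytoplasmic dynein 1 and other kinesins move cargo in the cell body or act in the mitotic spindle.

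The libraries held 13401417 to 15689497 estimated counts, of which the motor genes took 0.516% to 0.614%. The first control library stood apart from the other 5. Its log2 CPM correlated with theirs at 0.74 to 0.771, against 0.774 to 0.836 among the others. It had a count for 12460 genes, against 13024 to 14530, and Foxj1, the master regulator of motile cilia, was at 3.26 TPM there against 11.96 to 18.8 TPM. In TPM, which is scaled per transcript length and per library, the motor genes summed to 7302 to 9268 per library. Ccn1, listed under its older symbol Cyr61, was counted 411, 238 and 524 times in cKO libraries and 1665, 2037 and 2224 times in control libraries. Its edgeR log2 fold change was −2.22 ± 0.38 (SE), with an adjusted p of 0.99999 over all genes and an exact two-sided permutation p of 0.1, the smallest that 3 against 3 samples can give. All 6 ependymal markers were detected in every library, and their summed level was 15340 to 16290 TPM in cKO and 15010 to 17930 TPM in control libraries. Neuron markers summed to 12.98 to 31.7 TPM in cKO and 7.72 to 16.6 TPM in control libraries, with 6 of 8 detected and Rbfox3 and Slc17a7 at 0. Cycling cell markers summed to 3.17 to 16.8 TPM in cKO and 18.2 to 32.3 TPM in control libraries, with 7 of 7 detected in at least 1 library and Mki67 and Ccna2 near 0. Neuroblast markers, 4 of 4 detected, summed to 4.55 to 8.56 and 9.28 to 22.2 TPM, and oligodendrocyte markers, 4 of 5 detected with Mog at 0, to 32.2 to 59.3 and 29.1 to 114 TPM.

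Most of the motor transcripts per length came from the light chains. The 9 shared light chain genes summed to 6807 ± 733 TPM (SD, n = 6), which was 83.7% of the motor gene total. Cytoplasmic dynein followed with 373 ± 55.4 TPM, outer arm dynein with 315 ± 41.4 TPM, the 42 kinesin genes with 304 ± 31.5 TPM and inner arm dynein with 235 ± 27.2 TPM. The ranges of cytoplasmic, outer arm and kinesin sums overlapped, so the order among those 3 is not larger than the spread between libraries. The inner arm sums, from 188 to 270 TPM, also reached above the lowest outer arm sum of 266 TPM and the lowest kinesin sum of 245 TPM. In the first cKO library the inner arm sum was above the kinesin sum. Every light chain sum was far above every other sum.

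**Figure D1:**
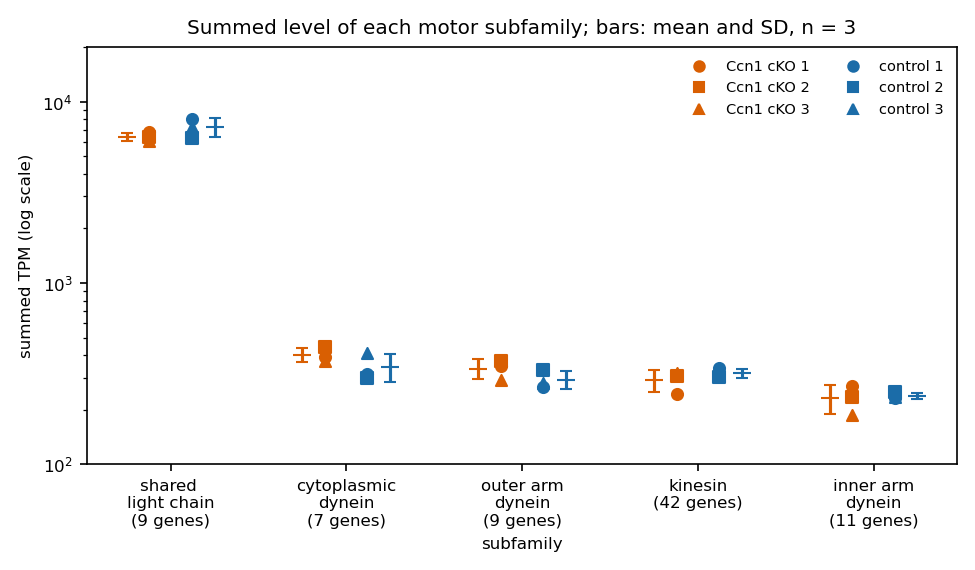
Summed TPM (log axis) of each motor subfamily in each library, with cKO in orange, control in blue, and the mean and SD of 3 libraries beside the points. The light chain sums lie between 6061 and 8048 TPM and all other sums between 188 and 444 TPM, and cKO and control points overlap in every subfamily.

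The share depends on the scale. On CPM, which is not divided by transcript length, light chains made up 43.7% of the motor gene total, kinesins 18.7%, inner arm genes 12.3%, outer arm genes 12.1% and cytoplasmic dynein genes 10.2%. Within the outer arm the small subunits again stood above the large ones on the TPM scale: the 4 outer arm intermediate and light chain genes summed to 302 ± 42.1 TPM and the 5 outer arm heavy chain genes to 12.6 ± 3.65 TPM (SD, n = 6).

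Dynlrb2 led all members. It codes for a roadblock light chain, a small subunit that binds dynein intermediate chains, and is known for its high expression in ciliated cells. Its level was 4176, 3957 and 4407 TPM in the cKO libraries and 5489.8, 3992 and 4873 TPM in the control libraries. Its paralog Dynlrb1, the widely expressed roadblock chain, had 449, 546 and 432 TPM in cKO and 502, 426 and 724 TPM in control libraries. On TPM, Dynlrb2 was higher in 6 of 6 libraries, by 6.73-fold to 10.9-fold. In CPM, which is not divided by length, the means over the 6 libraries were 938 for Dynlrb2 and 191 for Dynlrb1. The ratio of count to TPM implied a length of 241 to 248 bases for Dynlrb2 and 433 to 445 bases for Dynlrb1. These lengths stand for the divisor of TPM and are not transcript sizes. The longest annotated transcripts have 527 bases (Dynlrb2) and 788 bases (Dynlrb1). A shorter divisor gives a higher TPM for the same count. The coding sequences of the pair, at chr2:155236533-155250277 (+ strand, Dynlrb1) and chr8:116504974-116515915 (+ strand, Dynlrb2) of GRCm38, are shown from GENCODE release M21 because they show how reads of the pair could be told apart; capitals mark the bases at which they differ.
Dynlrb1: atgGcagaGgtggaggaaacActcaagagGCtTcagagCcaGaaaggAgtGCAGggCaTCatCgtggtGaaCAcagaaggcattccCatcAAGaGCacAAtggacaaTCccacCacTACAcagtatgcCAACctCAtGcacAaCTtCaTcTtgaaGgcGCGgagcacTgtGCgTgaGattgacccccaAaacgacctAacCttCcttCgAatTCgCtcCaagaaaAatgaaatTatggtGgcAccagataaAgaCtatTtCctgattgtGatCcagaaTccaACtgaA
Dynlrb2: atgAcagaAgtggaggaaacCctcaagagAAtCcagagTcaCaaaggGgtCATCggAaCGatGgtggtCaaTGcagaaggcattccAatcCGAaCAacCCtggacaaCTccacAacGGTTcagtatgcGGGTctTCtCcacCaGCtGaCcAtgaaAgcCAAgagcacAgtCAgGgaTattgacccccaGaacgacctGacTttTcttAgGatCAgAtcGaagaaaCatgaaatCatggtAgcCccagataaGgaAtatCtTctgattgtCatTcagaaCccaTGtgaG
Both run over 288 bases and differ at 81 of them, an identity of 71.88%. All stretches of 31 bases in their annotated transcripts, the default word length of kallisto, occurred in no other gene, so the counts of the pair did not draw on shared words.

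The Tctex-type light chains, which also bind intermediate chains, were a different case. Dynlt1b was listed at 1033, 924 and 299.97 TPM in cKO and 979, 959 and 805 TPM in control libraries, and Dynlt1f at 510, 409 and 459 TPM in cKO and 508, 416 and 404 TPM in control libraries. The third cKO library stood below the other 5 for Dynlt1b, and both groups overlapped. Dynlt1c had a mean of 30.6 TPM and Dynlt1a of 13.7 TPM, with Dynlt1a at 0 counts in 3 of 6 libraries. The 4 genes lie on chromosome 17, at chr17:6306340-6317500 (− strand, Dynlt1a), chr17:6430112-6436296 (+ strand, Dynlt1b), chr17:6601671-6609774 (+ strand, Dynlt1c) and chr17:6646602-6655900 (− strand, Dynlt1f). The first 300 of their 339 coding bases follow for Dynlt1a and Dynlt1b, with the only differing base in capitals.
Dynlt1a: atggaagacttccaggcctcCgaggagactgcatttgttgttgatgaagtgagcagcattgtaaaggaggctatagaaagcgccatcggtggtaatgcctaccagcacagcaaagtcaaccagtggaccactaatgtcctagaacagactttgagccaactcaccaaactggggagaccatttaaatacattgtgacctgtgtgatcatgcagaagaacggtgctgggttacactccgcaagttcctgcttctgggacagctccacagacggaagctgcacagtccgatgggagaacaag
Dynlt1b: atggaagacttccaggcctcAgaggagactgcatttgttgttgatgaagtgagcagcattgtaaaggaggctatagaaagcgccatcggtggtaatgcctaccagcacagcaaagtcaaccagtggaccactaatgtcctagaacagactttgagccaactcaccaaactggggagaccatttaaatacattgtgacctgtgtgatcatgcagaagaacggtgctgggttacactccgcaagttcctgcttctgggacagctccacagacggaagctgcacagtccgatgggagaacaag
Dynlt1c and Dynlt1f have the same coding bases as Dynlt1a, and Dynlt1b differs from them by C21A, counted from 1 at the first coding base with the Dynlt1a base first. Over whole transcripts, 13.1% of 31-base stretches of Dynlt1b, 7.31% of Dynlt1f, 7.60% of Dynlt1c and 21.4% of Dynlt1a occurred in no other gene. The division among the copies is therefore an estimate. Their summed count does not depend on it, but their summed TPM does. TPM divides by a length, which was implied at 2477 to 2482 bases for Dynlt1c and 521 to 530 bases for Dynlt1b. The sum is not free of sharing, since 39.27% of the stretches of Dynlt1b also occurred in genes outside the members. That share was 22.85% for Dynlt1a, 19.75% for Dynlt1c and 19.05% for Dynlt1f. Summed over the 4 copies, the counts were 10981, 8839 and 5787 in cKO and 12568, 9044 and 9275 in control libraries.

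Dynll1 and Dynll2 code for the LC8 light chain, a dimer that many complexes besides dynein use. Dynll1 stood at 425 ± 49.8 TPM and Dynll2 at 9.62 ± 2.53 TPM (SD, n = 6), and Dynll1 was higher in 6 of 6 libraries. Their coding sequences of 267 bases differ at 50 positions. Dynlt3, another Tctex-type chain, had 49.3 ± 8.38 TPM.

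**Figure D2:**
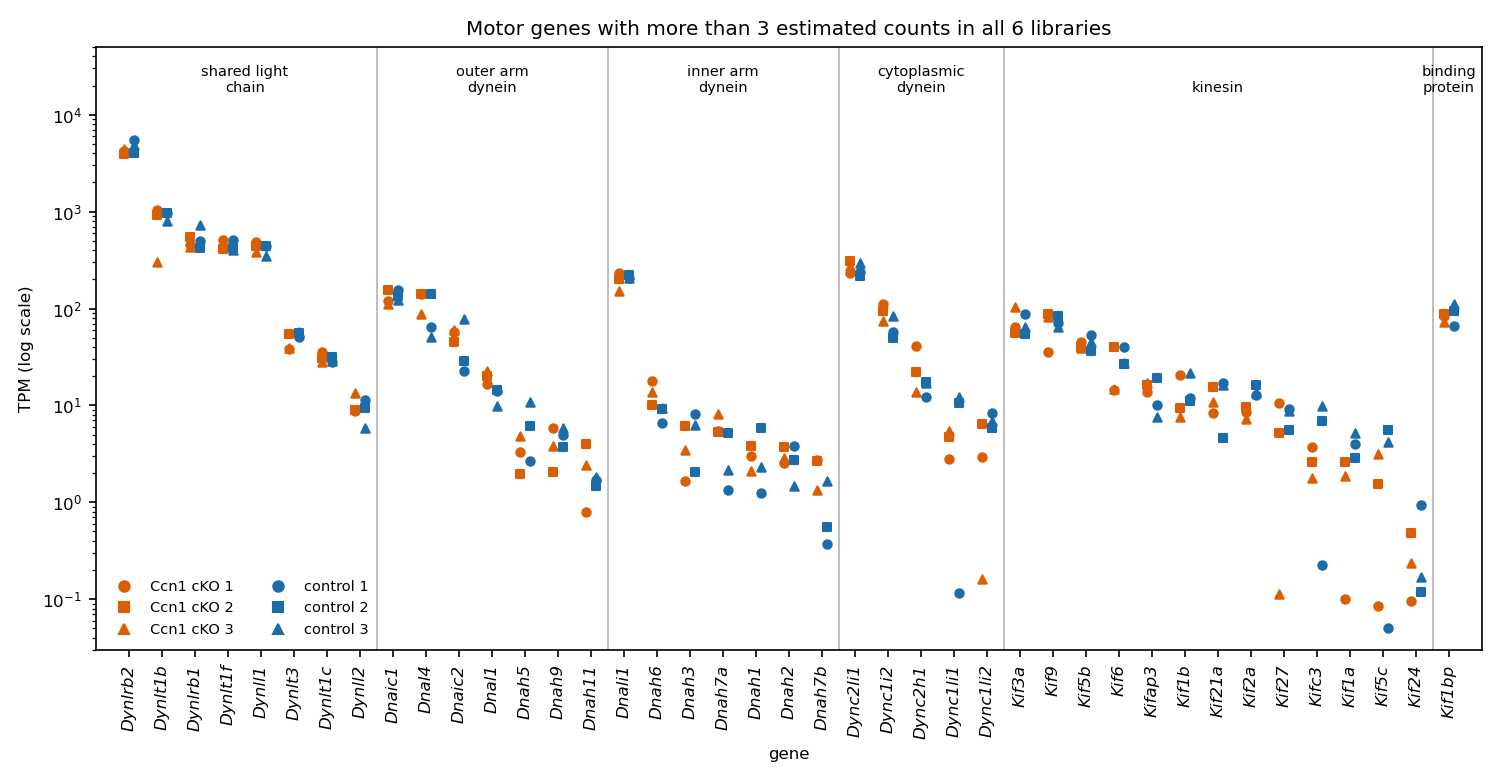
TPM (log axis) of the 41 motor genes with more than 3 estimated counts in every library, grouped by subfamily, 1 point per library. The light and intermediate chain genes Dynlrb2, Dnaic1, Dnali1 and Dync2li1 sit above all genes for heavy chains, which lie at a mean of 1.55 to 20.5 TPM.

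Among the outer arm genes, Dnaic1 and Dnaic2 code for the paired intermediate chains that anchor the arm. Dnaic1 was at 133 ± 19.2 TPM and Dnaic2 at 48.6 ± 20.9 TPM (SD, n = 6), and Dnaic1 was higher in 6 of 6 libraries, by 1.57-fold to 6.89-fold. Dnal4, a light chain gene, had 141, 142 and 88.1 TPM in cKO and 64.2, 142 and 50.9 TPM in control libraries, with the second control library level with the highest cKO libraries. Of the heavy chains, which carry the ATPase motor, Dnah5 had 4.95 ± 3.26 TPM, Dnah9 4.39 ± 1.48 TPM and Dnah11 2.03 ± 1.10 TPM. Dnah5 exceeded Dnah9 in 3 of 6 libraries, so these levels did not differ beyond their spread. Dnah8 was at 0 in every library, and Dnah17 had 74, 17 and 0 counts in cKO and 0, 7 and 0 counts in control libraries. Textbook accounts place Dnah8 and Dnah17 in the sperm flagellum.

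Dnali1, a light chain of inner arms, was the highest inner arm gene at 204 ± 27.8 TPM (SD, n = 6). The inner arm heavy chain with the highest level was Dnah6, at 11.2 ± 4.08 TPM, followed by Dnah3 at 4.63 ± 2.61 TPM and Dnah7a at 4.61 ± 2.48 TPM. Dnah1 at 3.06 TPM and Dnah2 at 2.86 TPM were lower in the mean. Dnah6 exceeded Dnah3 in 5 of 6 libraries. Dnah10 had over 3 counts in 5 libraries and Dnah14 in 4, and Dnah12 in 2 with 4 counts in each. Dnah7a, Dnah7b and Dnah7c all lie on chromosome 1 and share much sequence, with 45.8%, 59.9% and 38.4% of their 31-base stretches in no other gene, so their levels are also best read as a sum.

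In cytoplasmic dynein, the ciliary form stood above the cell body form at the level of the heavy chain. Dync2h1, the heavy chain of cytoplasmic dynein 2, was at 20.5 ± 10.5 TPM and its light intermediate chain Dync2li1 at 261 ± 37.9 TPM (SD, n = 6). Dync1h1, the heavy chain of cytoplasmic dynein 1, was at 0.647 ± 0.818 TPM, below Dync2h1 in 6 of 6 libraries. The intermediate chain Dync1i2 had 77.9 ± 22.9 TPM and Dync1i1, its paralog known from neurons, 1.75 ± 1.53 TPM. The light intermediate chains Dync1li1 and Dync1li2 had 6.01 ± 4.66 and 5.12 ± 3.02 TPM, and each was higher in 3 of 6 libraries.

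On TPM, the kinesins with the highest levels were a kinesin-2 and a kinesin-9. Kif3a, a motor subunit of the heterotrimeric kinesin-2 of cilia, was at 71.4 ± 19.3 TPM, and its usual partner Kif3b at 1.15 ± 1.57 TPM (SD, n = 6). The third subunit of that complex, Kifap3, which links motor and cargo, had 14.05 ± 4.45 TPM. Kif3c, the other partner of Kif3a, had 0, 174 and 275 counts in cKO and 0 in every control library, and 59.8% of its 31-base stretches occurred in no other gene. Kif17, the homodimeric kinesin-2, was at 0.861 TPM.

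Kif9 and Kif6 form kinesin-9, a class of motile axonemes. Kif9 was at 70.4 ± 19.3 TPM and Kif6 at 27.3 ± 11.5 TPM (SD, n = 6), with Kif9 higher in 6 of 6 libraries. Kif27, a kinesin-4 linked to motile cilia, had 6.61 ± 3.85 TPM, and Kif19a, a kinesin-8 that trims cilia length, 3.71 ± 3.16 TPM. Of the kinesin-1 cargo motors, Kif5b, the ubiquitous form, had 43.0 ± 5.94 TPM and the most CPM of any kinesin at 226, while Kif5c and Kif5a, best known from neurons, had 2.42 ± 2.24 and 0.95 ± 1.08 TPM. Among the other cargo kinesins, Kif1b had 13.7 ± 5.82 TPM and Kif21a 12.1 ± 5.04 TPM, and Kif1a, known for synaptic vesicle transport, 2.77 ± 1.76 TPM. Kif2a, a kinesin-13 that takes microtubules apart, had 11.4 ± 3.44 TPM. Kifc3, a kinesin-14 and so one of the few kinesins that walk to the minus end, had 4.16 ± 3.53 TPM, and Kif16b, which moves early endosomes, 3.18 ± 2.38 TPM with 1 control library at 0. Kif1bp, the kinesin binding protein, had 86.0 ± 16.3 TPM, above any kinesin in mean TPM.

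Spindle kinesins were low or at 0. Of the 7 genes of the mitotic kinesin-5, 6, 10 and 12 classes, none had more than 3 counts in all 6 libraries. Kif11, which pushes spindle poles apart, had 212, 365 and 3 counts in cKO and 453, 310 and 39 in control libraries. Kif2c, a spindle relative of Kif2a, had 0, 0 and 181 counts in cKO and 366, 124 and 0 in control libraries, and Kif22, which moves chromosome arms, 14, 0 and 217 and 0, 46 and 58. Neither Kif2c nor Kif22 had counts in all 3 libraries of a genotype. Kif20b, a kinesin-6, had 147 counts in the second control library and at most 2 elsewhere. The kinesin-14 genes Kifc2 and Kifc5b had counts in 1 control library each, 106 and 15. Kif18a, Kif18b and Kifc1 were at 0 throughout and Kif23 had 2 counts in 1 library. In all, 41 of 81 members had more than 3 counts in every library and 12 in no library, and the other 28 lay between. The 12 are Dnah8, Kif12, Kif13b, Kif18a, Kif18b, Kif21b, Kif23, Kif26a, Kif2b, Kifc1, Dnah2os and Kif16bos. A count of 3 in a library is the upper limit that a count of 0 allows, which covers counting error only.

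A low mean went with large jumps between libraries. Kif5c, for example, had 7, 119 and 266 counts in cKO and 5, 432 and 372 in control libraries. At a mean of 100 to 400 counts lay 17 motor genes, of which 47.1% had at least 1 library at 3 counts or fewer, beside 51.5% of all genes in that range. At 1000 counts or more, none of the 20 motor genes had such a library, and their median coefficient of variation within groups was 19.6%, beside 23.1% of all genes at that level.

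Levels in TPM also fell with transcript length, for motor genes as for the rest. Over the 41 motor genes detected in all libraries, the rank correlation of mean TPM with the longest annotated transcript was −0.76, beside −0.62 over 6823 protein-coding genes detected in all libraries, given as a description across genes that share the same libraries. All 17 dynein heavy chain genes have an annotated transcript of at least 10000 bases, from 12009 to 16685. The 10 of them detected in all libraries had a median of 4.50 TPM, and the 148 protein-coding genes of at least 10000 bases that were detected in all libraries had a median of 3.48 TPM. The heavy chains therefore stood near other genes of their length, while genes under 1000 bases had a median of 214.6 TPM. TPM is itself divided by transcript length, so the scale enters this relation, and no such correlation was made on counts or CPM. Whether the length relation is a property of the cells, of the libraries or of the scale was not tested.

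**Figure D3:**
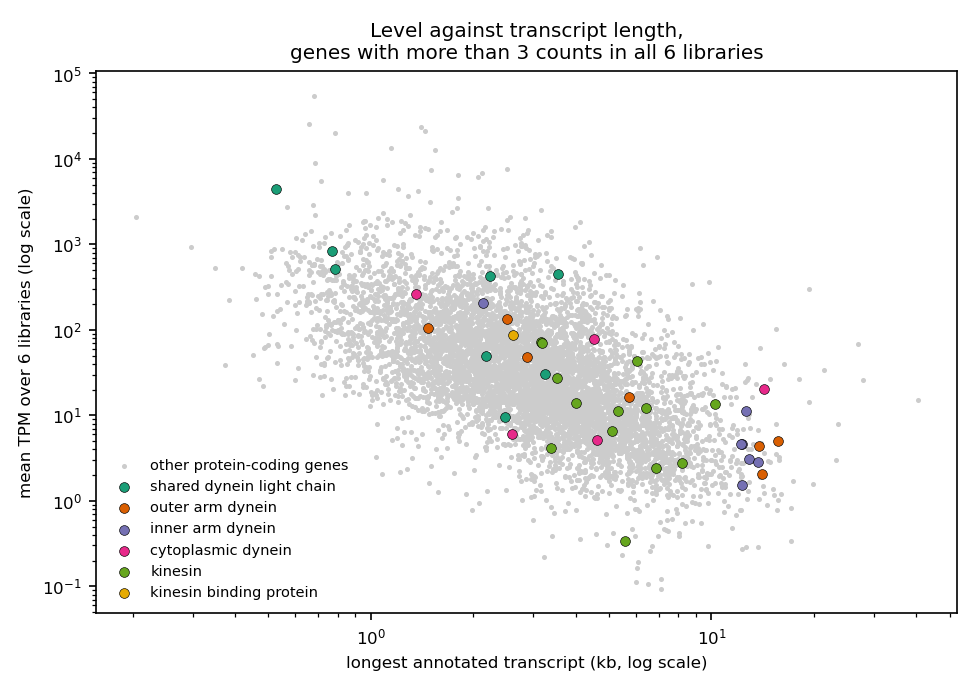
Mean TPM over 6 libraries against the longest annotated transcript in kb, both on log axes, for protein-coding genes with more than 3 counts in every library (grey) and the motor genes (coloured by subfamily). Motor genes follow the downward course of the other genes, with Dynlrb2 at 4482 TPM at the upper left and the heavy chains at the lower right.

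Because TPM divides by an estimated transcript length, a change of isoform in the estimate moves TPM and counts apart. Of 34 motor genes with at least 50 counts in every library, 3 had a length, as implied by the ratio of count to TPM, that varied over 1.5-fold between libraries, beside 6.08% of 5942 genes. Dnal1, an outer arm light chain gene, varied 4.34-fold, from 1318 to 5716 bases, the axonemal heavy chain gene Dnah9 varied 1.67-fold, and Dync2h1 varied 3.15-fold, from 3821 to 12020 bases. For Dync2h1 the first cKO library held 1834 counts and 40.8 TPM and the third 1952 counts and 13.7 TPM. For Dnal1, counts were 563, 293 and 375 in cKO and 1138, 507 and 221 in control libraries, whereas TPM were 16.5, 20.2 and 22.6 in cKO and 14.2, 14.3 and 9.80 in control libraries. The Dnal1 groups overlapped on counts and did not overlap on TPM, and the mean difference was −0.49 on the edgeR log2 scale and 0.60 on the log2(TPM + 1) scale.

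The cKO and control libraries were then compared over the motor genes. No motor gene passed edgeR's test at an adjusted p under 0.05: 0 of the 56 that had enough counts to be tested, beside 0% of 11574 genes. Ccn1, the gene removed in cKO, was not called by this edgeR fit either, at an adjusted p of 0.99999. The lack of calls therefore does not show that motor genes were unchanged. At an unadjusted p under 0.05, edgeR gave 1 motor gene of 56, or 1.79%, beside 2.75% of all genes. That gene was on the higher side in cKO, beside 1.43% of all genes, and none was on the lower side, beside 1.31%. By limma-voom the same limit gave 3 of 56, or 5.36%, beside 5.15%. DESeq2 called 1 motor gene of 62 at an adjusted p under 0.05, beside 1.69% of 11823 genes. The groups of CPM values did not overlap for 5 of 56 motor genes, or 8.93%, beside 9.62% of all genes; 3 were higher in cKO, beside 4.99%, and 2 lower, beside 4.62%. These shares are near or below those of all genes. In bulk RNA of sorted cells, fewer cells of a type and less RNA per cell cannot be told apart, and the labels do not say whether the samples come from separate animals, so the p-values measure only the spread between these samples.

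The difference was above 0 for 22 of 56 motor genes, or 39.3%, beside 50.3% of all genes, with a median log2 fold change of −0.12 for motor genes and 0.0044 for all genes. By family, 5 of 22 kinesins, 4 of 9 light chains, 3 of 7 outer arm genes, 6 of 10 inner arm genes and 4 of 7 cytoplasmic dynein genes were on the higher side in cKO, and no test was made of a family's direction. The split changed most without control replicate 1, which left 36 of 62 motor genes, or 58.1%, and 12 of 27 kinesins on the higher side, beside 52.1% of all genes. Without control replicate 3, 10 of 26 kinesins were on the higher side. With limma-voom, the replicate block or log2 TPM, 46.4% to 48.2% of motor genes were on the higher side, beside 53.6% to 54.5% of all genes. Summed levels by family overlapped between genotypes: light chains 6405 ± 347 TPM in cKO and 7210 ± 858 TPM in control (SD, n = 3), outer arm 337 ± 41.1 and 293 ± 33.2 TPM, inner arm 231 ± 41.4 and 238 ± 9.71 TPM, cytoplasmic dynein 402 ± 37.8 and 343 ± 60.2 TPM, and kinesins 291 ± 39.4 and 318 ± 19.0 TPM.

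**Figure D4:**
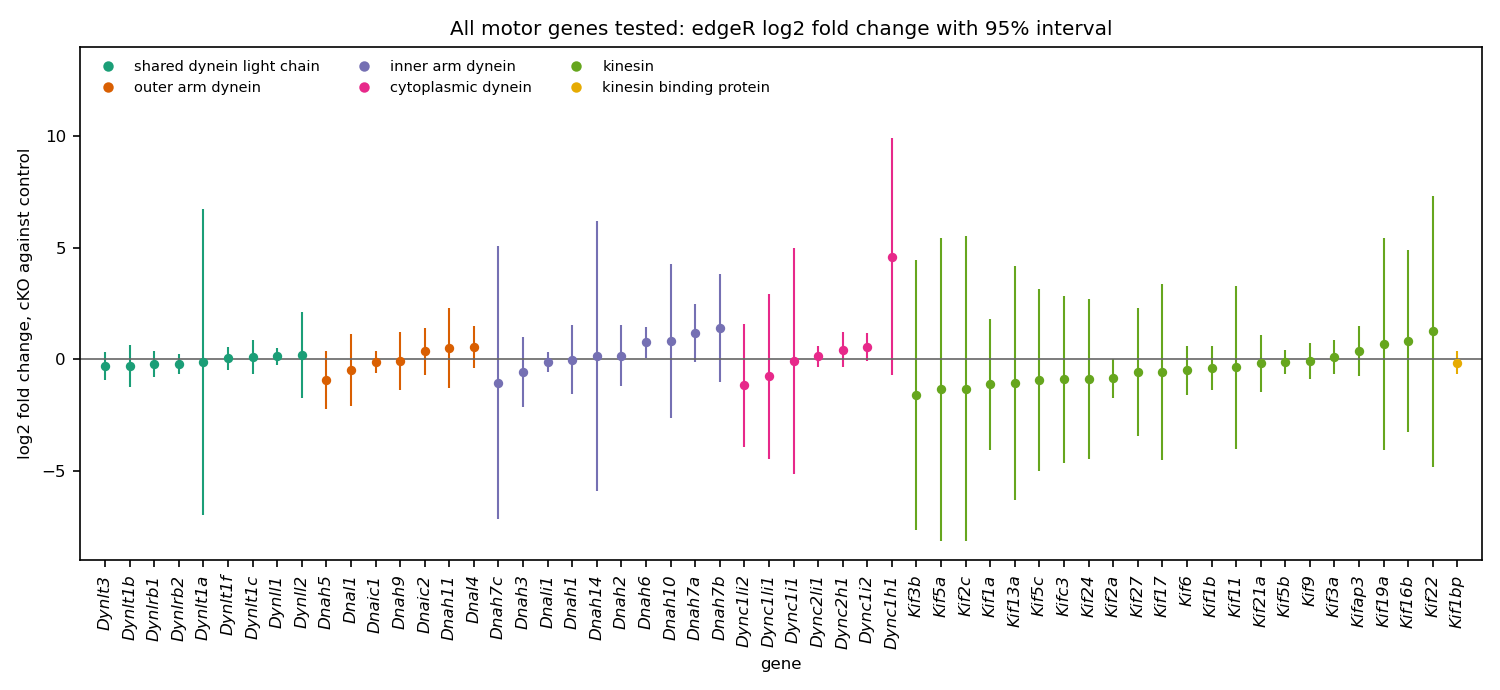
The edgeR log2 fold change (cKO against control) of the 56 motor genes tested, with its 95% interval, coloured by family and ordered within it. Intervals are narrow for genes with many counts such as Dynll1, at −0.25 to 0.50, and wide for genes near 0 in some libraries such as Dynlt1a, at −6.98 to 6.74.

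For the 8 members with the highest mean TPM every 95% interval held 0. The log2 fold change of Dynlrb2 was −0.22, with a 95% interval of −0.66 to 0.23. It was −0.23 for Dynlrb1 (−0.80 to 0.35), 0.04 for Dynlt1f (−0.48 to 0.56), 0.13 for Dynll1 (−0.25 to 0.50), 0.13 for Dync2li1 (−0.34 to 0.60), −0.11 for Dnali1 (−0.56 to 0.33) and −0.12 for Dnaic1 (−0.62 to 0.38). A difference of 2-fold or more, 1 on the log2 scale, lies outside each of these intervals. For Dynlt1f the interval leaves out the error of dividing reads among the Dynlt1 copies. The interval of Dynlt1b, −1.24 to 0.64 around −0.30, holds a 2-fold decrease. For Kif3a the interval was −0.66 to 0.85, for Kif9 −0.90 to 0.72 and for the sum of the 4 Dynlt1 copies −0.73 to 0.43, with a log2 fold change of −0.15 ± 0.25 (SE) for that sum.

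Dnah6 was the 1 motor gene with an unadjusted p under 0.05 in edgeR. It lies at chr6:73017606-73221651 (− strand) and codes for an inner arm heavy chain. Its counts were 2773, 1451 and 2153 in cKO and 1198, 1343 and 1573 in control libraries, or 156 ± 46.6 and 92.6 ± 11.6 CPM (SD, n = 3). The second cKO library lay within the control range in raw counts, and the groups did not overlap on CPM, which allows for library size. The log2 fold change was 0.75 ± 0.29 (SE; 95% interval 0.07 to 1.43), with an adjusted p of 0.99999 in edgeR and of 0.346 in DESeq2. Without the first control library it was 0.655.

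The Dnah7 copies code for another inner arm heavy chain. Dnah7a, at chr1:53397006-53706784 (− strand), had 828, 753 and 1234 counts in cKO and 242, 740 and 351 in control libraries, and the groups were separated only by the narrow gap to the second control library, 56.0 against 54.0 CPM. Its log2 fold change was 1.16 ± 0.56 (SE), with an adjusted p of 0.99999 in edgeR. The sum over Dnah7a, Dnah7b and Dnah7c was 1298, 1361 and 1437 counts in cKO and 966, 835 and 625 in control libraries, so all cKO values lay above all control values, with a wider gap than for Dnah7a alone. The log2 fold change of the sum was 0.87 ± 0.32 (SE; 95% interval 0.14 to 1.598), below an unadjusted p of 0.05 and with an adjusted p of 0.999997 in edgeR. Summing the copies was chosen after seeing the data. The remaining inner arm genes pointed both ways, with Dnah3 at −0.59 ± 0.68 and Dnah2 at 0.16 ± 0.59 (log2 fold change and SE).

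Kif2a was the 1 motor gene that DESeq2 called. It lies at chr13:106958996-107022126 (− strand) and codes for a kinesin-13, which takes microtubules apart at their ends instead of walking along them. Its counts were 469, 500 and 465 in cKO and 964, 964 and 909 in control libraries. The 3 cKO libraries lay close together, as did the 3 control libraries, and the groups did not overlap. The log2 fold change was −0.87 ± 0.39 (SE; 95% interval −1.76 to 0.02), with an adjusted p of 0.99999 in edgeR, whereas DESeq2 gave an adjusted p of 0.00723. Without the first control library it was −0.87 in edgeR. DESeq2 called 0.753% of genes as lower in cKO. Of the 31-base stretches of Kif2a, 22.1% also occurred in a gene that is no motor gene. The summed cycling cell markers and the summed neuroblast markers were also lower in every cKO library than in every control library, as given above, though single markers overlapped. Cdk1, for example, was at 8.51 and 7.05 TPM in the first and second cKO libraries and at 0 in the third control library. The part of such cells in the Kif2a value was not tested.

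**Figure D5:**
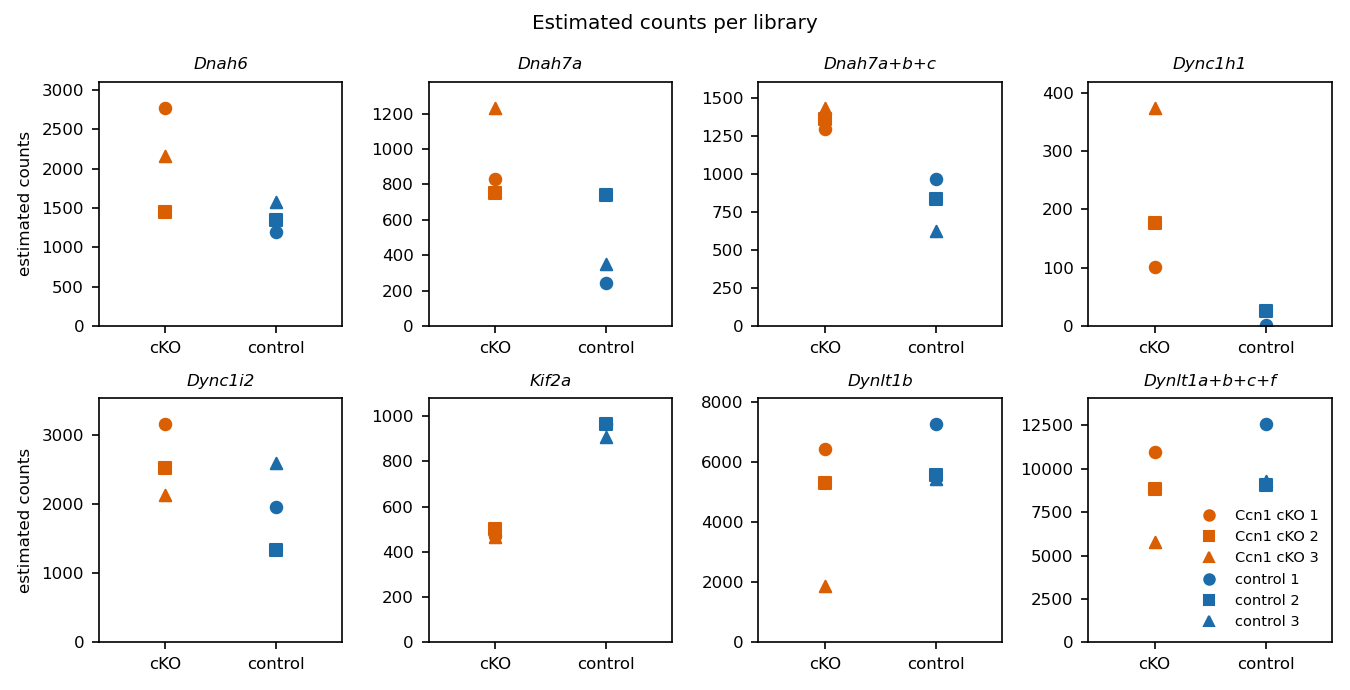
Estimated counts per library (linear axes from 0) for 6 motor genes and for the summed Dnah7 and Dynlt1 copies, 1 point per library. The Kif2a libraries form separate groups at 465 to 500 and 909 to 964 counts, whereas Dync1i2 and Dynlt1b overlap between genotypes.

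Dync1h1, the cytoplasmic dynein 1 heavy chain at chr12:110601452-110666945 (+ strand), was chosen after its values were seen. It had 101, 176 and 374 counts in cKO and 2, 25 and 0 in control libraries. All cKO values lay above all control values, but the gene passed the filter on low counts only through the cKO libraries. Its log2 fold change was 4.598 ± 2.29 (SE; 95% interval −0.70 to 9.90), with an adjusted p of 0.99999 in edgeR. Neuron markers reached higher sums in cKO than in control libraries, with overlap, and single markers pointed both ways. Map2 was at 11.26, 20.11 and 12.15 TPM in cKO and 10.31, 5.06 and 7.72 TPM in control libraries. Stmn2 was at 0, 0 and 4.13 TPM in cKO and 6.34, 3.81 and 0 TPM in control libraries. The part of neurons in the Dync1h1 value was not tested. The other subunits of cytoplasmic dynein 1 did not share the separation: Dync1i2 had 3162, 2528 and 2141 counts in cKO and 1956, 1333 and 2601 in control libraries, with overlap, and Dync1li1 and Dync1li2 had log2 fold changes of −0.77 ± 1.59 and −1.18 ± 1.19 (SE).

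Dynlt3 was the fifth gene without overlap on CPM, at 67.1, 91.4 and 69.1 CPM in cKO and 95.5, 91.6 and 94.3 CPM in control libraries. The second cKO library reached almost to the lowest control, and the groups overlapped on TPM. Dnah5, the outer arm heavy chain gene, had 633, 354 and 934 counts in cKO and 617, 1127 and 2268 in control libraries, with a log2 fold change of −0.93 ± 0.56 (SE) and an adjusted p of 0.99999 in edgeR. Its groups overlapped, since the first control library lay within the cKO range. Kif26b, of the kinesin-11 class, and Kif3c had counts in 2 cKO libraries and in no control library, at 0, 259 and 193 for Kif26b, and fell below the filter. Kif4, a chromosome-bound kinesin-4, had 8, 0 and 143 counts in cKO and 0 in every control library. Kifc2 and Kifc5b, in turn, had counts in 1 control library each and in no cKO library. All of these genes have a mean of 1 to 100 counts. In that range 95.24% of motor genes and 94.66% of all genes had a library at 3 counts or fewer. The share of all genes counted in 1 genotype only was not computed.

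The genes that assemble, dock and load these motors gave a similar picture. Of 53 genes in 5 lists under other symbols, 48 were tested, 24 on each side of 0, and none was called by edgeR or DESeq2. At an unadjusted p under 0.05 edgeR gave 1 of 48, or 2.08%, beside 2.75% of all genes, and 4 of 48, or 8.33%, did not overlap on CPM, beside 9.62%. Ccdc39, a ruler protein that sets where inner arms attach, was the 1 gene of these with an unadjusted p under 0.05 in edgeR, at 82.5 ± 19.6 TPM in cKO and 45.2 ± 16.6 TPM in control (SD, n = 3), with a log2 fold change of 0.90 ± 0.31 (SE). Dnaaf2, an assembly factor singled out after its values were seen, had 2, 42 and 0 counts in cKO and 555, 269 and 253 in control libraries, without overlap. Dnaaf2 passed the filter on low counts only through the control libraries. Its log2 fold change was −4.46 ± 2.08 (SE), with an adjusted p of 0.99999 in edgeR and of 0.173 in DESeq2. In the list of dynein subunits under other symbols the highest was Tctex1d4, a Tctex-type chain, at 758 ± 93.3 TPM in cKO and 806 ± 39.4 TPM in control, followed by Tctex1d2 at 254 ± 79.8 and 211 ± 83.9 TPM. Of 13 assembly factors tested, which build dynein arms in the cytoplasm, 6 were on the higher side and 7 on the lower, led in level by 1110004E09Rik at 430.5 ± 58.8 and 412 ± 23.7 TPM and Pih1d2 at 384 ± 105 and 436 ± 126 TPM. Of 7 genes tested in the docking list, drawn up for genes that fix the arms to the doublets, 2 were on the higher side and 5 on the lower. Highest in level was Tctex1d1, by its name a Tctex-type chain and not a docking factor, at 361 ± 85.1 and 412 ± 59.2 TPM. Tctex1d1 is counted among the 5 on the lower side. Ccdc114 followed at 106 ± 21 and 111 ± 39.6 TPM. Of 16 genes of dynactin, the cofactor of cytoplasmic dynein, and its regulators, 8 were on each side, with Dctn3 at 193 ± 28.9 and 249 ± 95.3 TPM and Dctn6 at 155 ± 41.8 and 153 ± 31.8 TPM. Kinesin light chain and adaptor genes were low, with Klc1 at 10.5 ± 3.42 and 13.3 ± 7.70 TPM and Klc4 at 13.4 ± 7.30 and 5.69 ± 3.92 TPM.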

How the data were processed

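RNA of 6 samples, 3 of each genotype, was sequenced, and genotype and replicate number came from the titles. The submitters' processing notes name CASAVA 1.8, cutadapt 1.11 and kallisto 0.42.5; the build, the annotation and how transcripts became genes are not given in any source used here. Per the file headers, the deposited files hold estimated counts, which are not normalized, and TPM for each gene. Estimated counts were rounded to whole numbers. Subfamilies were assigned by hand from gene names, and the members and lists were chosen with earlier results of these data known.

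All genes were fitted in edgeR 4.0.16 (R 4.3.3) with filterByExpr, TMM scaling and the robust quasi-likelihood test, with a term for genotype alone. Benjamini-Hochberg adjustment ran over all 11574 genes tested, with a threshold of 0.05. The standard error is the log2 fold change divided by the square root of the F statistic. CPM values use TMM-scaled library sizes. The tests and shared counts of a gene with near-identical copies are uncertain. Alternatives were DESeq2 1.42.0, limma 3.58.1 (voom, and log2(TPM + 1) or log2(TPM + 0.1)), other scalings and filters, a replicate term and leaving out each library. The edgeR fit was tested on simulated counts. Gene positions, transcripts and sequences come from GENCODE release M21 (GRCm38), in which all 81 motor genes and 99.1% of all identifiers were found. Members named in full were the 3 highest by mean TPM in each class (5 in classes of over 8), any with an unadjusted p under 0.05 and any called under a setting. Libraries of 13401417 to 15689497 counts set the precision. The 95% intervals were built from the edgeR log2 fold change, the standard error defined above and a t quantile at edgeR's total degrees of freedom. They are approximate and include the spread between samples.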

Additional observations from a re-analysis of the deposited data

How the results depend on the processing

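No motor gene, no gene of the other lists and no gene at all was called by edgeR under the other scalings and filters, with a replicate block or without any 1 library, or by limma. DESeq2 called 200 genes, Ccn1 among them at −2.22, and 1 motor gene, Kif2a at −0.87. The motor genes with an unadjusted p under 0.05 numbered 7 of 71 with DESeq2 (9.86%, beside 5.44% of all genes), 3 of 71 with no filter (4.23%, beside 3.11%), 3 of 56 with limma-voom (5.36%, beside 5.15%), 2 of 51 with near-identical copies summed (3.92%, beside 2.76%; chosen after seeing the data) and 0 of 56 with the replicate block (beside 2%), and 0 to 3 without 1 library (0% to 5.08%, beside 2.99% to 4.87%). The motor genes whose groups did not overlap numbered 8 to 15 of 56 without 1 library (14.3% to 26.8%, beside 17.7% to 21.2%), since fewer samples overlap less often. On CPM the shares of the motor gene total were 43.7% for light chains, 10.2% for cytoplasmic dynein, 12.1% for outer arm, 12.3% for inner arm and 18.7% for kinesins, and 3.06% for Kif1bp.

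Of 492 alternative values for the 56 motor genes tested, 21 turned direction, all of genes that missed the threshold, and the cause was not tested. The fits without 1 library are not in that count. They add further changes of direction, given below as ranges. Dnah1 became 0.18 with the replicate block, 0.23 with limma-voom, 0.085 on log2(TPM + 1) and 0.17 on log2(TPM + 0.1), and Dync1li1 0.26, 0.73 and 0.48 with the block, voom and log2(TPM + 0.1). Kif21a became 0.0072 and 0.026 on log2(TPM + 1) and log2(TPM + 0.1), and Kifc3 0.13 with limma-voom. Dynlt1a became 1.68, 2.25, 1.115 and 2.19 with the block, voom, log2(TPM + 1) and log2(TPM + 0.1), Dnah7c 0.16, 0.23 and 0.016 with the block, voom and log2(TPM + 0.1), Dnah14 −0.17 and −0.16 with voom and log2(TPM + 0.1), and Dnal1 0.60 and 0.63 on the TPM scales. Without 1 library, ranges that crossed 0 were −0.39 to 0.73 for Dnah1, −0.034 to 0.92 for Dnah11, −0.49 to 0.24 for Dnah9, −2.42 to 1.22 for Dnah14, −0.15 to 0.61 for Dnah2, −2.84 to 3.59 for Dnah7c, −1.43 to 0.49 for Dync1i1, −0.058 to 0.51 for Dynll2, −1.15 to 9.33 for Dynlt1a, −0.0041 to 0.16 for Dynlt1c, −2.29 to 0.43 for Kif17, −1.35 to 0.79 for Kif24, −0.90 to 0.24 for Dnal1, −0.25 to 0.060 for Dnaic1, −0.27 to 0.017 for Dnali1, −0.63 to 0.062 for Dynlt1b, −0.054 to 0.23 for Dynlt1f, −1.23 to 0.20 for Kif11, −0.21 to 1.59 for Kif19a, −0.59 to 0.20 for Kif21a, −2.19 to 1.84 for Kif22, −0.21 to 0.36 for Kif3a, −2.20 to 0.18 for Kif3b, −0.29 to 0.092 for Kif5b and −0.28 to 0.22 for Kif9. Ccn1 stayed between −2.50 and −1.97, Dnah6 between 0.53 and 0.96 and Kif2a between −0.93 and −0.79.

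Samples share replicate numbers across genotypes, but the correlations of deviations between same-numbered samples were 0.0089, 0.027 and 0.013, so the numbers were not taken as pairs. Every sample correlated best with its own number, and the replicate block left 0 genes called and 232 genes with an unadjusted p under 0.05, against 318 without it. At a mean under 400 counts, libraries at or near 0 limit what was detectable.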
